A study of Mus musculus with 8 samples.

Results

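Semaphorins are secreted or membrane-bound guidance cues that turn cells and growing axons away from, or towards, a source. Plexins are their signalling receptors, and neuropilins are co-receptors that most secreted class 3 semaphorins need to bind a plexin. In fibroblasts and other mesenchymal cells the system is known for its part in cell spreading, migration and the patterning of vessels and nerves. The genes described here are the semaphorins of classes 3 to 7, the plexins, the neuropilins and the plexin domain containing genes Plxdc1 and Plxdc2, taken by gene symbol. The array measured 33 of them among 19938 genes: 20 semaphorins, 9 plexins, 2 neuropilins and 2 Plxdc genes. The Plxdc proteins share a domain with plexins, and are known as receptors for the secreted factor PEDF rather than for semaphorins.

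The cells were mouse embryonic fibroblasts of the FVB/N background in which the Daxx gene is knocked out, a genotype that all 8 samples share. Daxx places a histone variant into chromatin and regulates transcription, partly from PML nuclear bodies. In 4 samples Daxx had been put back, 2 named DaxxA and 2 named DaxxB, and 4 samples had received a vector. The difference between A and B is not given, nor whether replicates were independent cultures or clones, so p-values here reflect array-to-array spread that could be purely technical. The study asked which genes are regulated downstream of Daxx. Every value below is a log2 signal from an expression array, every change is Daxx minus vector on the log2 scale with its standard error (SE) unless another pair is named, and a gene is called where limma gave an adjusted p below 0.05 over all 19938 genes.

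One vector array stood apart. Vector replicate 2 had an interquartile range of 2.79, against 3.31 to 3.39 on the other 7 arrays, and a median of 5.21 over 1027 olfactory receptor genes, against 4.65 to 4.70 on the others. Results are therefore given on all 8 arrays, and on 7 arrays without it where that bears on a call. The signal of the Daxx probe set was 7.35 ± 0.0964 in the Daxx arrays and 7.15 ± 0.216 in the vector arrays (SD, n = 4 each), and the groups overlapped (exact two-sided permutation p = 0.143, where 0.0286 is the smallest possible). Whether its probes fall within the deletion, or within the Daxx sequence put back, is not known here, so this is a limited check, and all directions rest on the labels. Of the fibroblast markers 14 of 15 lay above the background level defined below. Of the others 5 of 12 endothelial, 6 of 10 neural and glial, 3 of 9 blood cell and 3 of 10 epithelial markers did. Over all genes 12974 of 19938 did.

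Of the 33 genes, 6 fell, 1 rose and 26 were not called in the Daxx arrays. Sema5a, Plxna2, Sema3c, Sema3a, Nrp2 and Sema6c fell, and Plxdc2 rose. Over all genes 4.52% were called in either direction, 2.73% as lower and 1.8% as higher, and among the 33 the shares were 21.2%, 18.2% and 3.03%. The median change of the 33 genes was -0.08, and that of all genes was -0.03. Without vector replicate 2, Nrp1, Sema3d and Sema3f joined the genes that fell, which gave 9 lower and 1 higher. The background on those 7 arrays was 12.8% in either direction, 7.57% lower and 5.26% higher.

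**Figure D1:**
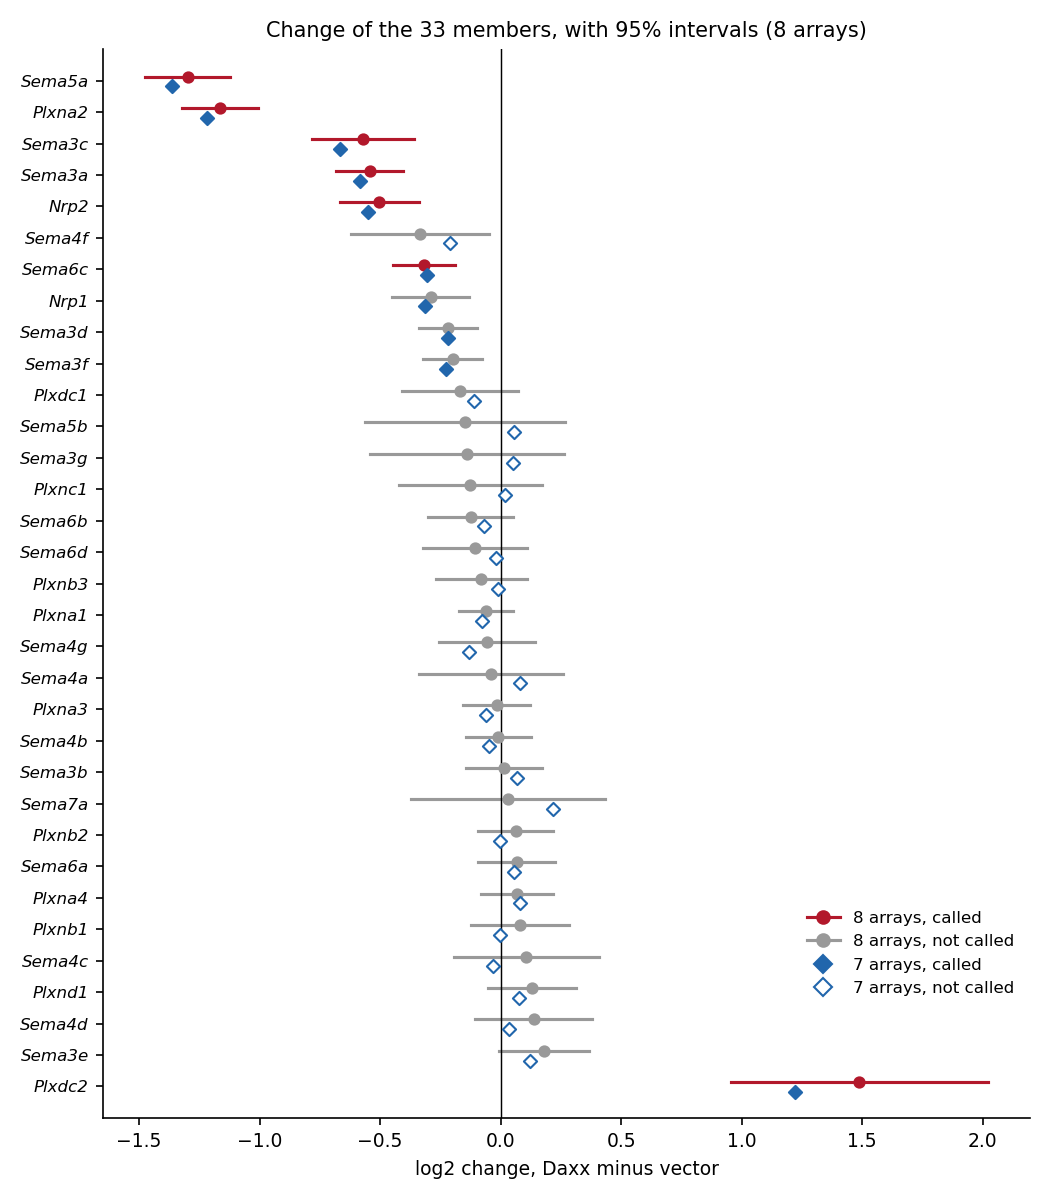
Change of each of the 33 genes in log2 units, Daxx minus vector. Circles with 95% intervals are from all 8 arrays (red where called, grey where not), and diamonds are from 7 arrays without vector replicate 2 (filled where called). Sema5a and Plxna2 lie near the lower end at -1.30 and -1.16, and Plxdc2 alone lies far above 0 at 1.49.

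A gene was taken to be above background where its mean over the 8 arrays exceeded 6.07, the level below which 95% of the olfactory receptor genes lay. By that measure 27 of the 33 were above background, and all 7 called genes were among them. Over all genes 12974 of 19938 were above it. When only those 12974 were tested, 1334 of them were called for Daxx against vector, a larger share than over all genes. Nrp1 and Sema3f were then called beside the 7. The 6 others were Plxna4, Plxnb3, Plxnc1, Sema3d, Sema4a and Sema6d. Signals of different probe sets depend on the probes and are not compared between genes.

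The class 5 semaphorin Sema5a, a transmembrane cue with thrombospondin repeats that can attract or repel axons, had the lowest change of the 33. Its signal was 7.80 and 7.79 in the DaxxA arrays and 7.75 and 7.62 in the DaxxB arrays, against 9.08, 8.84, 9.10 and 9.12 in the vector arrays. The highest Daxx array was over 1 unit below the lowest vector array, vector replicate 2. Sema5a fell by 1.30 (SE 0.0771, 2.46-fold, adjusted p = 3.98e-05). Its relative Sema5b, known in mouse retina as a repellent that works beside Sema5a, was at 6.38 to 6.57 in the Daxx arrays and 6.30 to 7.23 in the vector arrays, and was not called (-0.15, SE 0.182). The top vector value of Sema5b came from vector replicate 2, and on 7 arrays its change was 0.06.

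The plexin A receptor Plxna2, which in mouse takes signals from transmembrane semaphorins of classes 5 and 6 and, with a neuropilin, from class 3, fell almost as far. It read 8.03 and 8.08 in DaxxA and 7.94 and 7.95 in DaxxB, against 9.23, 8.996, 9.22 and 9.20 in vector. All 4 Daxx arrays lay within 0.15 of each other and far below every vector array. Plxna2 fell by 1.16 (SE 0.0694, 2.24-fold, adjusted p = 4.04e-05).

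No other plexin was called. Plxna1, the partner of neuropilins for Sema3a, read 10.12 to 10.20 in the Daxx arrays and 10.17 to 10.25 in the vector arrays (-0.06, 95% interval -0.17 to 0.05). Plxna3 had a change of -0.02 and Plxna4 of 0.07, with intervals within -0.16 to 0.22. Among the plexin B receptors, Plxnb1, Plxnb2 and Plxnb3 had changes of 0.08, 0.06 and -0.08 (adjusted p of 0.70 or more). Plxnd1, the receptor that takes Sema3e without a neuropilin, read 8.93 to 9.21 in the Daxx arrays and 8.74 to 8.96 in the vector arrays (0.13, adjusted p = 0.531). Plxnc1, the receptor of Sema7a, had a signal that lay above only 51.3% of the olfactory receptor genes and a change of -0.13.

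Of the 7 class 3 semaphorins, 2 fell on 8 arrays and 4 fell on 7 arrays. Over all genes the share called lower also went up, from 2.73% on 8 arrays to 7.57% on 7. Sema3a, the secreted repellent that causes collapse of sensory growth cones, had 8.42 and 8.39 in DaxxA and 8.34 and 8.29 in DaxxB, against 9.001, 8.79, 8.92 and 8.91 in vector. The groups did not overlap, and Sema3a fell by 0.54 (SE 0.0611, 1.46-fold, adjusted p = 0.00147). Sema3c, known for guiding neural crest cells into the heart's outflow tract, had 9.45 and 9.39 in DaxxA and 9.36 and 9.39 in DaxxB, against 10.10, 9.68, 10.10 and 10.01 in vector. Vector replicate 2 was the lowest vector array here too and still above all Daxx arrays. Sema3c fell by 0.57 (SE 0.0933, 1.49-fold, adjusted p = 0.0104), and by 0.67 (SE 0.0449) on 7 arrays.

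Sema3f, the ligand that prefers Nrp2, had 8.86 and 8.77 in DaxxA and 8.82 and 8.91 in DaxxB, against 9.08, 8.96, 9.06 and 9.05 in vector. The groups were separate by a narrow margin, and the change of -0.20 had an adjusted p of 0.0844 on 8 arrays and 0.00786 on 7. Sema3d, a ligand of endothelial and neural crest cells, read 5.42 and 5.395 in DaxxA and 5.41 and 5.41 in DaxxB, against 5.62, 5.62, 5.54 and 5.72 in vector, with no overlap. Its change of -0.22 had an adjusted p of 0.0551 on 8 arrays and 0.0134 on 7, at a signal not above background. The remaining class 3 genes were not called. The change was 0.01 for Sema3b and -0.14 for Sema3g on 8 arrays, and 0.07 and 0.05 on 7. Sema3e, the ligand of Plxnd1, read 7.35, 7.35, 7.60 and 7.43 in the Daxx arrays, against 7.29, 7.08, 7.28 and 7.36 in vector (0.18, adjusted p = 0.344). Its groups overlapped, and on 7 arrays its change was 0.12 (adjusted p = 0.267).

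Both neuropilins had lower signals in every Daxx array than in any vector array. Nrp2, the co-receptor for Sema3f and Sema3c and for lymphatic growth factors, read 9.72 and 9.74 in DaxxA and 9.70 and 9.52 in DaxxB, against 10.21, 10.04, 10.20 and 10.25 in vector. It fell by 0.50 (SE 0.0723, 1.42-fold, adjusted p = 0.00531). Nrp1, the co-receptor for Sema3a and for vascular endothelial growth factor, read 10.15 and 10.14 in DaxxA and 9.91 and 10.02 in DaxxB, against 10.33, 10.27, 10.34 and 10.45 in vector. Its change was -0.29 (SE 0.0704, adjusted p = 0.0566), short of the threshold on 8 arrays, and -0.31 (SE 0.064, adjusted p = 0.00894) on 7.

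**Figure D2:**
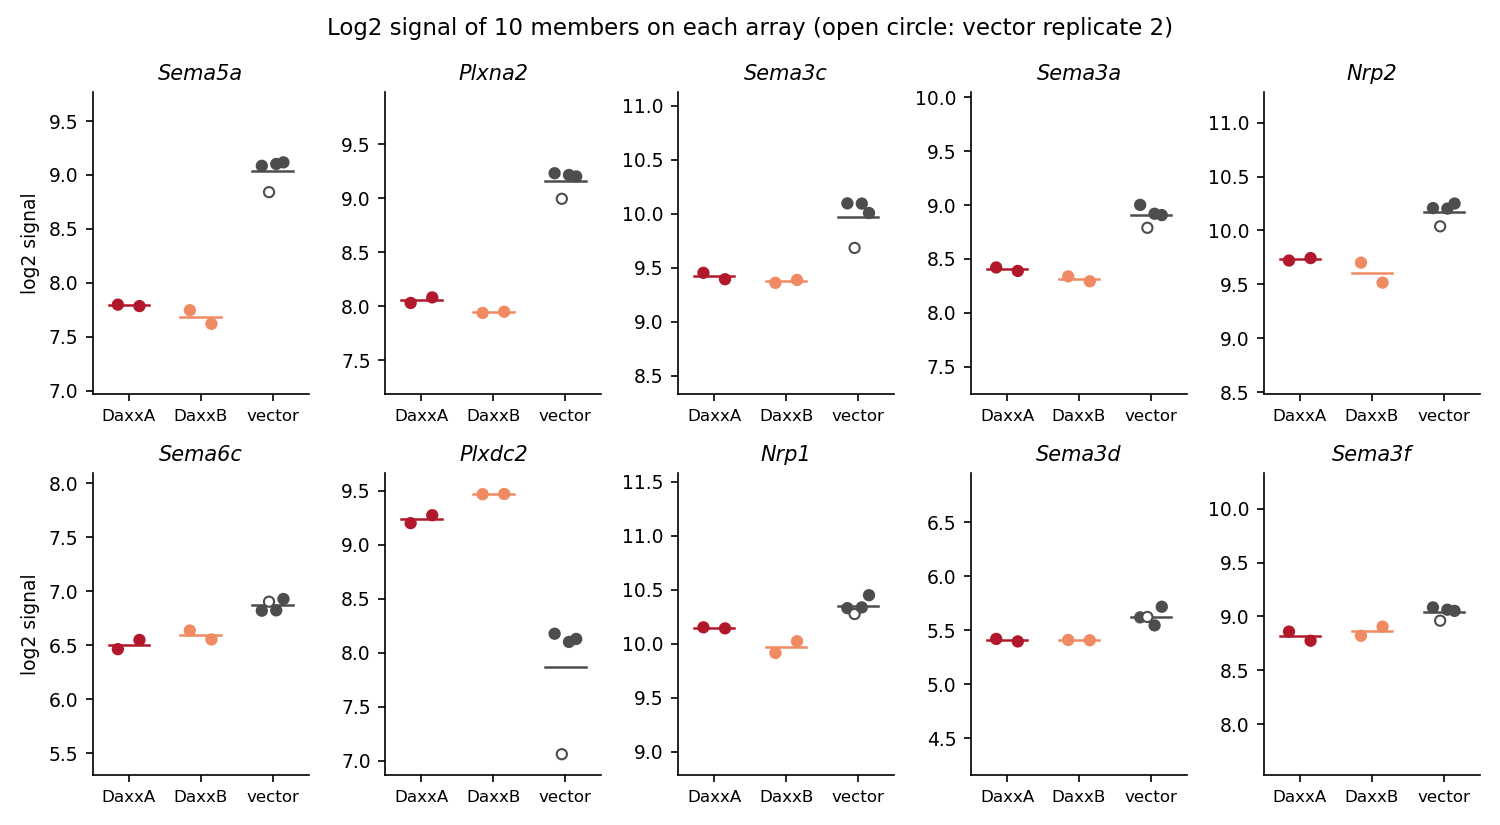
Log2 signal on each array for the 10 genes called in Daxx against vector on 8 arrays or on 7 arrays. Each panel spans the same range of log2 units, points are arrays, bars are group means, and the open circle is vector replicate 2. In all 10 panels the DaxxA and DaxxB points lie on one side of the vector points, below them in 9 and above them for Plxdc2.

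Over all 33 genes, the 4 Daxx values lay wholly below the 4 vector values in 9 and wholly above in 1, where 6.79% and 8.02% of all genes were separated in those directions. The 9 were the 6 called ones with Nrp1, Sema3d and Sema3f. On 7 arrays Plxna1 joined them, which gave 10 below and 1 above, where 12.9% and 11.5% of all genes were.

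Plxdc2, a transmembrane receptor first described in tumour endothelium, had the highest change among all 19938 genes on 8 arrays. Its signal was 9.20 and 9.27 in DaxxA and 9.47 and 9.47 in DaxxB, against 8.18, 7.06, 8.10 and 8.13 in vector. Vector replicate 2 was more than 1 unit below the other vector arrays, which were within 0.08 of each other. Plxdc2 rose by 1.49 (SE 0.234, 2.80-fold, adjusted p = 0.00851). On 7 arrays the increase was 1.22 with an SE of 0.0695, 2.33-fold, and an adjusted p of 1.55e-06. Its paralogue Plxdc1 read 5.88 to 6.36 in the Daxx arrays and 6.17 to 6.46 in the vector arrays, and was not called (-0.17, SE 0.106).

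Among class 6 semaphorins, transmembrane ligands of plexin A receptors, Sema6c was the 1 called gene of 4. It read 6.46 and 6.55 in DaxxA and 6.63 and 6.55 in DaxxB, against 6.82, 6.90, 6.82 and 6.93 in vector. Sema6c fell by 0.32 (SE 0.0571, 1.25-fold, adjusted p = 0.0163). The call was lost without vector replicate 4, DaxxA replicate 1, DaxxA replicate 2 or DaxxB replicate 2, with changes of -0.35 to -0.29 over all alternatives tried. Sema6a, a ligand of Plxna2 and Plxna4 in mouse, Sema6b and Sema6d had changes of 0.07, -0.12 and -0.11.

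On 8 arrays none of the 6 class 4 semaphorins was called, nor was Sema7a, the lipid-anchored semaphorin that also acts through beta1 integrin. Sema4d, the ligand of Plxnb1, had a value of 0.14 for its change (SE 0.106), and Sema4a, Sema4b, Sema4c and Sema4g had -0.04, -0.01, 0.11 and -0.06. The 2 probe sets of Sema4d gave 0.14 and 0.11, and those of Sema6b held the same values. Sema4f, a class 4 ligand of neurons and Schwann cells, had the lowest change of the class at -0.33 (SE 0.127, adjusted p = 0.232). It read 6.46 and 6.40 in DaxxA and 6.65 and 6.51 in DaxxB, against 6.79, 7.22, 6.75 and 6.59 in vector. The groups overlapped, and the top value came from vector replicate 2. On 7 arrays the change of Sema4f was -0.21 (adjusted p = 0.0768), and it was called in DaxxA alone against vector (-0.28, adjusted p = 0.0211). Sema7a read 6.34, 6.20, 6.32 and 6.54 in the Daxx arrays, against 6.30, 6.88, 6.05 and 6.05 in vector, again with vector replicate 2 on top (0.03, adjusted p = 0.941). Without that array its change was 0.22 (adjusted p = 0.135), and it was called in DaxxB against vector (0.30, adjusted p = 0.0359).

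To show the regions in front of the genes that fell, the 250 bases before the annotated start are printed for the 5 with the lowest changes among those called, 5′ to 3′ on the gene's strand, from RefSeq on GRCm38.p6. All lie on the + strand, at chr15:32244563-32244812 for Sema5a, chr1:194619579-194619828 for Plxna2, chr1:62703067-62703316 for Nrp2, chr5:13396534-13396783 for Sema3a, chr5:17574566-17574815 for Sema3c. Such a window was given for 26 of the 33 genes. Capitals mark matches on either strand to 3 motifs. The GC box was searched as GGGCGG. The other motifs were the CAAT box of promoters, searched as CCAAT, and the TATA box, for which TATAAA was the pattern used.
Sema5a: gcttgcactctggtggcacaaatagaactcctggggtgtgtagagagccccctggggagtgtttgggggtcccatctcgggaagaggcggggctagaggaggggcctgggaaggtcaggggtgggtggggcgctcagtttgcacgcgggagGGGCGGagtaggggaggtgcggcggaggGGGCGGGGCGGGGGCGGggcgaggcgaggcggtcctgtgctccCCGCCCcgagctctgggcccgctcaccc
Plxna2: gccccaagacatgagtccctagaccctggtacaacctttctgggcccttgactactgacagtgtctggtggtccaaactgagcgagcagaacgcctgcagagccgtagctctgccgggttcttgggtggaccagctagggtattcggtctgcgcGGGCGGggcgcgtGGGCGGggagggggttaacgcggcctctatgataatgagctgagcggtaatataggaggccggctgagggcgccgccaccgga
Nrp2: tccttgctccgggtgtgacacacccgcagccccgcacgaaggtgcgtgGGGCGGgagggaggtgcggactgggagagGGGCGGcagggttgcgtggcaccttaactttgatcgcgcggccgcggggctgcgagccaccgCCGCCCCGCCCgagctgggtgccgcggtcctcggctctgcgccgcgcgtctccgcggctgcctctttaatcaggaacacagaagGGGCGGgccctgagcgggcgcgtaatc
Sema3a: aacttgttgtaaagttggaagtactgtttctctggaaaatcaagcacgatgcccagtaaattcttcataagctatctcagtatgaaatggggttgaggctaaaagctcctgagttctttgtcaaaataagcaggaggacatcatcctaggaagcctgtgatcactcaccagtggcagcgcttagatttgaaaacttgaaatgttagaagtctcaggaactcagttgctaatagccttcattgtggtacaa
Sema3c: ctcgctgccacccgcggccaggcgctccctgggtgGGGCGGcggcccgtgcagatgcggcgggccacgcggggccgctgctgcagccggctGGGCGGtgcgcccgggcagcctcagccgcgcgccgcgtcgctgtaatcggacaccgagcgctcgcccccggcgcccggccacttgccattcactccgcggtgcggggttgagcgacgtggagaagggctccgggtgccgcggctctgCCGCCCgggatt

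The windows of Sema5a and Nrp2 each held 5 GC boxes, of which 1 pair overlapped in each, that of Sema3c held 3 and that of Plxna2 held 2. Sema3a had 0 matches to any of the 3 motifs. CpG dinucleotides numbered 17 for Sema5a, 18 for Plxna2, 32 for Nrp2, 39 for Sema3c and 2 for Sema3a, where the median over all 32851 windows was 6. A GC box was found in 32.7% of all windows, a CAAT box in 33.8% and a TATA box in 12.4%. Among the 37 windows given for the 26 genes, 27, 7 and 0 held them. Sema3d, Sema3a and Sema3e lie near each other on chromosome 5, with 0 other protein-coding genes between Sema3d and Sema3a and 3 between Sema3a and Sema3e in the GRCm38.p6 annotation. Sema3d and Sema3a had changes below 0 (-0.22 and -0.54) and Sema3e a change above 0 (0.18), of which that of Sema3a was called.

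DaxxA and DaxxB were each compared with the same 4 vector arrays, so the results of both share those controls. In DaxxA 4 of the 33 genes were called, all lower (Sema5a, Plxna2, Sema3a and Sema6c), where 1.97% of all genes were called, 1.45% as lower and 0.522% as higher. In DaxxB 5 fell (Sema5a, Plxna2, Sema3a, Nrp2 and Nrp1) and Plxdc2 rose, where 2.69% of all genes were called, 1.92% as lower and 0.767% as higher. Of all genes called in DaxxB, 28.5% were higher, or 39.2% after another round of quantile normalization. Sema5a changed by -1.24 in DaxxA (SE 0.0935, adjusted p = 0.000952) and by -1.35 in DaxxB (SE 0.0935, adjusted p = 0.000583). Plxna2 changed by -1.11 and -1.22. Plxdc2 had a change of 1.37 in DaxxA, which was not called (SE 0.302, adjusted p = 0.0882), and one of 1.60 in DaxxB, which was (SE 0.302, adjusted p = 0.0401). The difference between these was not called either, as given below.

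**Figure D3:**
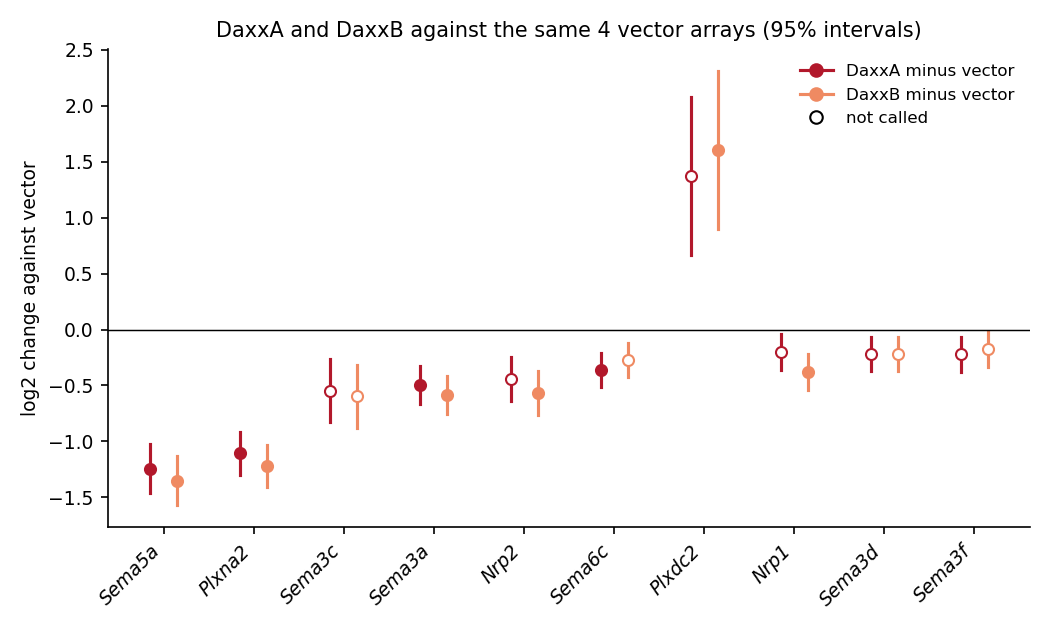
Change of 10 genes in DaxxA and DaxxB against the same 4 vector arrays, in log2 units with 95% intervals from the fit of 3 groups on 8 arrays; filled points were called. The values are -1.24 and -1.35 for Sema5a, and 1.37 and 1.60 with wide intervals for Plxdc2.

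These counts, and those over all genes, depended on single arrays. Without vector replicate 2, 10 genes were called lower and 1 higher in DaxxA, where 6.8% and 4.46% of all genes were (11.3% in all). In DaxxB 9 were called lower and 4 higher (Plxdc2, Sema3e, Sema6a and Sema7a), where 9.53% and 10.9% of all genes were (20.5% in all). Leaving out any other single array left 2 called genes in DaxxA, Sema5a and Plxna2. In DaxxB it left 3 (Sema5a, Plxna2 and Sema3a), or 2 without DaxxB replicate 1 or 2.

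Between DaxxA and DaxxB 0 of the 33 genes and 0 of all genes (0%) were called by limma on 8 arrays, while 1 of the 33 and 846 of all genes had an unadjusted p below 0.05. The differences, DaxxA minus DaxxB, ran from -0.24 to 0.18. The 1 gene was Sema6a, at 6.03 and 6.07 in DaxxA, 6.24 and 6.30 in DaxxB and 6.12, 6.06, 6.11 and 6.09 in vector. Its difference was -0.22 (95% interval -0.38 to -0.07, adjusted p = 1.0), and on 7 arrays its adjusted p was 0.0541. For Sema5a the difference was 0.11 (95% interval -0.15 to 0.36), for Plxna2 0.11 (-0.11 to 0.33) and for Plxdc2 -0.23 (-1.05 to 0.58). On 7 arrays 428 genes were called between DaxxA and DaxxB (2.15%, with 1.36% lower and 0.787% higher in DaxxA), of which 0 were among the 33.

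The genes that carry plexin signals into the cell were looked at next, as a list of 34 of which 32 were measured. The list was chosen by function with earlier results of these data known, so its counts are no independent test. Of these 4 fell, 1 rose and 27 were not called, where 2.73% of all genes fell and 1.8% rose (4.52% in all). The median change was -0.03 for the list and for all genes alike. Dpysl3, a collapsin response mediator protein that acts on the cytoskeleton below Sema3a, read 9.39 and 9.40 in DaxxA and 9.36 and 9.35 in DaxxB, against 9.97, 9.91, 10.00 and 10.07 in vector. It fell by 0.61 (SE 0.0518, adjusted p = 0.000306). Rnd3, a small GTP-binding protein that loosens the actin cytoskeleton, read 9.46, 9.37, 9.23 and 9.39 in the Daxx arrays, against 10.08, 9.89, 10.07 and 10.18 in vector. It fell by 0.69 (SE 0.0778, adjusted p = 0.00149). Both genes were separate between the groups by more than the spread within either.

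Rnd1, a related protein that binds plexin cytoplasmic domains, went the other way and rose by 0.31 (SE 0.0634, adjusted p = 0.0287). Farp1, an exchange factor of the family that works with plexin A, fell by 0.33 (SE 0.0648, adjusted p = 0.0253), and Arhgef11, a guanine nucleotide exchange factor that binds plexin B, fell by 0.21 (SE 0.0486, adjusted p = 0.0466). The list held 2 called genes, Dpysl3 and Rnd3, without vector replicate 1 or 3 or any single Daxx array, 3 without vector replicate 4 (with Rnd1), and 7 without vector replicate 2. The count over all genes, 902 on 8 arrays, moved likewise to 446 to 559 without any other single array and to 2558 (12.8%) without vector replicate 2.

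A second list, chosen in the same way, held 24 co-receptors and other partners, all measured. Of these 5 fell, 2 rose and 17 were not called, beside the same 2.73% and 1.8% of all genes. The median change of the list was -0.06, and that of all genes was -0.03. Vegfd, a lymphatic growth factor whose receptor works with Nrp2, read 8.09 and 8.002 in DaxxA and 8.12 and 8.07 in DaxxB, against 8.91, 9.20, 8.91 and 8.88 in vector. It fell by 0.90 (SE 0.0786, adjusted p = 0.000346). Vegfa, the ligand that binds Nrp1, rose by 0.29 (SE 0.0545, adjusted p = 0.0213).

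Among the called genes of this list 3 encode partners of Plxdc proteins. Cttn, which encodes cortactin, another such partner, was not called (0.01, SE 0.0498). Serpinf1 encodes PEDF, the ligand of Plxdc1 and Plxdc2, and read 10.70, 10.77, 10.82 and 10.88 in the Daxx arrays, against 11.08, 11.13, 11.19 and 11.22 in vector. It fell by 0.36 (SE 0.0602, adjusted p = 0.0111). Nid1, a basement membrane nidogen of the kind that Plxdc proteins bind, read 9.30, 9.26, 9.56 and 9.44 in the Daxx arrays, against 8.60, 7.76, 8.60 and 8.58 in vector. It rose by 1.0 (SE 0.186, adjusted p = 0.0195), or by 0.79 (SE 0.0691) without vector replicate 2, the lowest array. Nid2, the other nidogen, read 6.86, 6.79, 6.86 and 6.80 in the Daxx arrays, against 8.05, 7.33, 7.86 and 8.12 in vector. It fell by 1.01 (SE 0.156, adjusted p = 0.00766), and by 1.18 without that array. Erbb2, a receptor kinase that pairs with plexin B, fell by 0.35 (SE 0.0627, adjusted p = 0.0169). Itga1, an integrin chain that with beta1 integrin can bind Sema7a, fell by 0.39 (SE 0.0525, adjusted p = 0.00381) at a signal not above background.

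**Figure D4:**
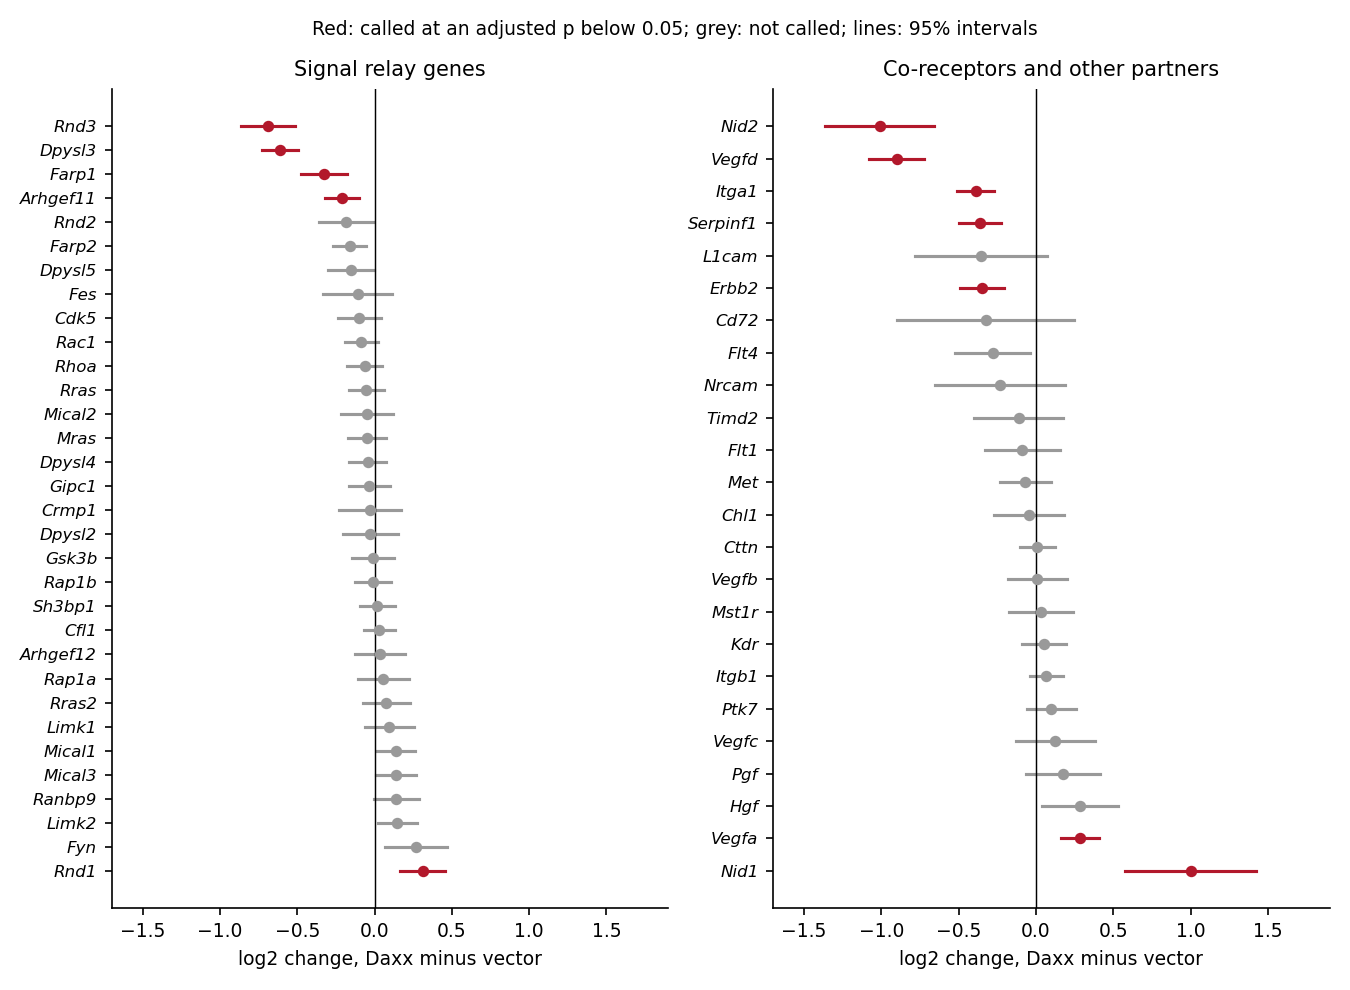
Change in log2 units, Daxx minus vector, of the 32 signal relay genes and the 24 co-receptors and other partners, with 95% intervals on 8 arrays; red genes were called. Dpysl3 and Rnd3 lie lowest among the relay genes, and Nid1 and Nid2 lie at opposite ends of the partners at 1.0 and -1.01.

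The count of called partners was 12 without vector replicate 2, and 4 without vector replicate 3 or without either DaxxB array. Over all genes the counts were 2558 without vector replicate 2, and 457, 504 and 446 without vector replicate 3, DaxxB replicate 1 and DaxxB replicate 2, against 902 on 8 arrays. Nid1 lost its call without any single Daxx array, and Vegfa kept its call only without vector replicate 2 or DaxxA replicate 2. Vegfd, Nid2 and Itga1 were called whichever array was left out, and Serpinf1 in all cases but vector replicate 3. Erbb2 was called in 3 cases, without vector replicate 2 or 4 or DaxxA replicate 1. Other cell types were checked beside these results. None of 12 endothelial, 9 blood cell and 10 epithelial markers was called on 8 arrays by limma, where 4.52% of all genes were. None of them had an unadjusted limma p below 0.05, where 3076 of 19938 genes did. Only 5, 3 and 3 of these markers lay above background, so this is a limited check. On 7 arrays none of these markers was called for Daxx against vector either, where 12.8% of all genes were. In DaxxA 1 endothelial marker (Esam, -0.19) was called lower on 7 arrays, where 6.8% of all genes were. In DaxxB 2 blood cell markers (Cd3e, 0.25, and Tyrobp, 0.19) were called higher, where 10.9% of all genes were. The mean of Tyrobp over 8 arrays, 6.08, was close to the background level of 6.07. Of 10 neural and glial markers Map2, a microtubule protein, rose by 0.60 (adjusted p = 0.0104), where 1.8% of all genes rose. On 7 arrays Syn1, a synaptic vesicle protein, was called higher as well (0.36, adjusted p = 0.000856), where 5.26% of all genes were. Gfap, an astrocyte filament protein with a signal not above background, was called higher on 7 arrays in DaxxB (0.21), where 10.9% of all genes were. Of 15 fibroblast markers 5 fell, namely Dcn (-1.47), Prrx1 (-1.07), Pdgfra (-0.82), Pdgfrb (-0.70) and Twist2 (-0.42), and Col1a2 rose (0.31). Over all genes 2.73% fell and 1.8% rose. The other 9 fibroblast markers were not called, with changes of -0.35 to 0.13. Of all 15, 7 had changes above 0 and 8 below, so the list did not move as a whole. The mean signal of the fibroblast list was 9.28 to 9.41 on the Daxx arrays and 9.64 to 9.65 on the vector arrays. The part of the fibroblast list in the changes of the semaphorin system was not tested. Fewer cells of a type and less RNA per cell cannot be told apart in such bulk samples.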

How the data were processed

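RNA of 8 samples of Daxx knockout mouse embryonic fibroblasts was hybridised to Affymetrix arrays. The deposited values are log2 signals made by the authors with Affymetrix Expression Console and RMA, per the submitters' processing notes. RMA corrects the background, sets the arrays to a common distribution and summarises each probe set, which compresses differences near background. Software versions: not given in the sources used here. There are no detection calls, so weak genes were kept. The number of arrays limits the precision.

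Of 35556 probe sets 21789 had 1 gene symbol in the platform annotation, 1621 had several and 12146 had none listed. Where a symbol had several probe sets, the brightest on average was kept, leaving 19938 genes. All 33 members were matched by gene number to RefSeq.

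Tests used lmFit and eBayes of limma 3.58.1 (R 4.3.3), with Benjamini-Hochberg adjustment over all genes. Daxx against vector was fitted with 2 conditions, and every comparison that splits DaxxA from DaxxB with 3 groups and 1 estimate of spread. The Daxx gene was tested by exact permutation. The fits were tested on simulated data. The members, lists and tests were chosen with earlier results of these data known. All members are named, those called in any comparison on 8 arrays, or in Daxx against vector on 7, with every value, and up to 8 called genes per list by adjusted p. List genes with no match, such as Rhod and Pak1, were not analysed here. Alternatives were leaving out each array, other probe set, scaling, filter, weight and variance settings, and the replicate number as a block.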

Additional observations from a re-analysis of the deposited data

Results flagged for a closer look

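Each of the 33 genes and Daxx was looked at in the 4 Daxx and the 4 vector arrays, 68 sets in all, for 1 array set far apart from the other 3. Chance marks about 1 set in 20. Marked were 7 values, of which 5 came from vector replicate 2, each the lowest of its set. They were Plxdc2 at 7.06 (nearest vector array 8.10), Plxna2 at 8.996 (9.20), Sema5a at 8.84 (9.08), Plxnb2 at 10.81 (11.05) and Plxnd1 at 8.74 (8.95). The others were Plxna4 in vector replicate 4, at 5.91 (6.04), and Sema4c in DaxxA replicate 2, at 7.76 (7.93).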

How the results depend on the processing

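Sema5a and Plxna2 were called lower in Daxx than in vector under all 16 alternatives tried, with changes of -1.36 to -1.22 and -1.22 to -1.11. Sema3a, Sema3c, Nrp2 and Plxdc2 were called under 15, all but the block on replicate number, and Sema6c under 11. No called gene changed sign under any alternative, whereas 12 genes that were not called did so at least once. Called among the 33 genes, Daxx against vector, were 7, with 6 to 10 when 1 array was left out, 11 with array weights and 2 with the replicate block. DaxxA against vector gave 4, with 2 to 11 when 1 vector or DaxxB array was left out. It gave 2 with arrays centred on their medians (288 of all genes), 7 among genes above background (600 of 12974) and 11 with array weights (2718). The replicate block gave 0 (0 of all genes), and only the groups compared gave 2 (194). DaxxB against vector gave 6, with 3 to 13 when 1 vector or DaxxA array was left out. It gave 13 with array weights (4252 of all genes), 0 with the replicate block (0) and 3 from only the groups compared (278). Between DaxxA and DaxxB the count was 0 throughout, except 1 (Sema6a) with array weights. Relay genes numbered 5, with 2 to 7 when 1 array was left out. They numbered 3 with arrays centred (715 of all genes), 8 with array weights and 1 with the replicate block. Partners numbered 7, with 4 to 12, 12 with array weights and 1 with the replicate block. The Daxx probe set differed by 0.10 to 0.26 with 1 array left out, never past the threshold. Genes called among all 19938, Daxx against vector, numbered 902, 1402 after another quantile normalization, 2558 without vector replicate 2, 3231 with array weights, 162 with the replicate block, and 446 to 559 without any other single array. For DaxxA they numbered 393, with 0 (block) to 2718 (weights), for DaxxB 536, with 0 (block) to 4252 (weights), and between DaxxA and DaxxB 0, with 485 under array weights, 362 from only those groups and 428 without vector replicate 2. The replicate numbers are not stated to pair samples. Deviations of same-numbered arrays from their group means had correlations of 0.02 to 0.16. With 2 arrays each in DaxxA and DaxxB the deviations mirror each other, so these values cannot decide whether the numbers pair samples. The block leaves vector replicates 3 and 4 without a partner and costs degrees of freedom. Where a count moved, the cause was not tested otherwise. No scaling shifted the median change of all genes by over 0.1.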
